A study of Ischnura elegans with 24 samples.

Results

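The 100 most abundant contigs of damselfly larvae were the contigs with the highest mean share of a library's counts over all 24 libraries, 100 of the 34095 contigs in the deposited table. A contig is a transcript sequence assembled from reads by Trinity, without a genome. They made up 0.293% of the contigs and held 42.3% ± 3.35 of the counts (SD, n = 24). The mean shares chose the contigs, so their height is a description and is given with no test. The rule averaged over all groups and used no contrast between them, but a contig that was high in 1 group could enter through that group.

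The libraries were made from RNA of whole male larvae of Ischnura elegans, labelled F0, in their final larval stage. Each library was a pool of 3 larvae, and every population and temperature had 2 pools, a and b, of different larvae. The 4 groups of 6 libraries were southern larvae reared at 24 °C, their southern counterparts at 20 °C, northern larvae reared at 24 °C and their northern counterparts at 20 °C, each from 3 populations. All larvae were reared singly and fed Artemia nauplii. The labels number the populations of each latitude but do not say where they were collected, so latitude stands for 3 populations on each side. Libraries are written as group, population number and pool, so that northern_24 1a is pool a of northern population 1 at 24 °C.

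In the RNA of a whole insect, messages differ in number over several orders of magnitude. The most abundant ones usually come from large tissues or from processes at work in every cell, such as the contractile proteins of muscle, the proteins of the cuticle, digestive enzymes of the gut, storage proteins of the fat body, mitochondrial transcripts and the machinery of translation. Insects are ectotherms, and rearing temperature changes the pace of their growth and moulting. The files do not pair these contigs with gene names, and 0 contig identifiers matched the RefSeq gene table of the species, so no contig below has a known role and contigs are given by identifier. Contig lengths were not used here, so a share of counts reflects both length and number of molecules, and the ranks order contigs by counts taken. In whole larvae, fewer cells of a type and less RNA per cell cannot be told apart.

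Counts were concentrated in very few contigs. TRINITY_DN68415_c43_g1_i1 was first in 24 of 24 libraries, with a mean share of 7.74%. TRINITY_DN68460_c0_g1_i1 followed with a mean share of 2.44%, TRINITY_DN121518_c13_g1_i1 with 1.84% and TRINITY_DN173382_c1_g2_i1 with 1.71%. The first contig took 2.22 to 4.33 times the counts of the next contig in the same library. The gap between ranks 1 and 2 was thus wider than any later step of the curve. In all, 8 contigs exceeded 1% of counts on average and 18 exceeded 0.5%. TRINITY_DN5668_c9_g2_i1 (1.59%), TRINITY_DN121381_c29_g2_i2 (1.43%), TRINITY_DN121381_c29_g2_i1 (1.37%) and TRINITY_DN5402_c1_g1_i1 (1.17%) completed the 8, and ranks 9 and 10, TRINITY_DN173090_c3_g1_i1 and TRINITY_DN121378_c5_g1_i1, lay just under that level at 0.970% and 0.916%.

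At the edge of the list the shares were close together. The contigs of rank 98, 99 and 100 had mean shares of 0.0996%, 0.0992% and 0.0980%, and those of rank 101, 102 and 103 had 0.0977%, 0.0962% and 0.0951%. The list is therefore a range of a continuous distribution. Choosing on pool a alone and on pool b alone gave lists with 97 contigs in common, and ranking by the median share kept 98 of the 100.

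**Figure D1:**
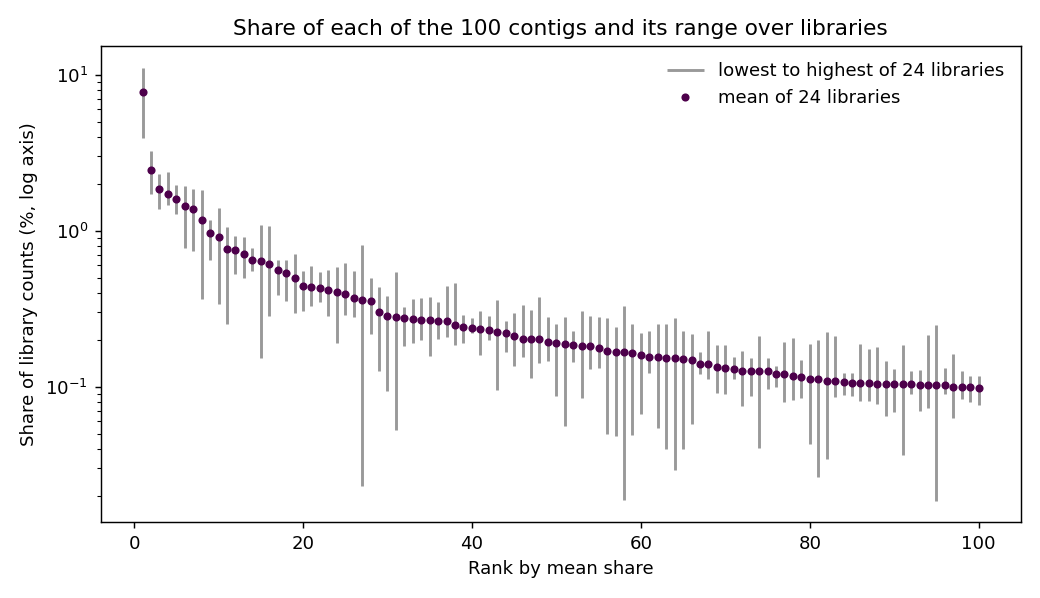
Share of library counts (%, log axis) of the 100 contigs against their rank by mean share. Points are means of 24 libraries and vertical lines run from the lowest to the highest library; the first contig stands at 7.74%, and the lines are longest for a few contigs of middle and low rank.

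Only the first rank was fixed over the libraries. TRINITY_DN121518_c13_g1_i1, rank 3 by mean, stood between ranks 2 and 8 in single libraries, and TRINITY_DN5402_c1_g1_i1, rank 8, between ranks 3 and 25. Of the 100 contigs, 54 were among the 100 most abundant in every library, and 84 were so in the mean of each of the 4 groups. A single library's own list of 100 held 80 to 94 of them, and 73 other contigs appeared in at least 1 library's list. No contig was at 0 anywhere, and the lowest count was 2520. The highest share was under 2 times the lowest for 42 contigs and at least 4 times the lowest for 22, with a median of 2.17. TRINITY_DN173386_c11_g1_i1, rank 40, was the steadiest, between 0.221% and 0.273% of counts. TRINITY_DN5397_c9_g1_i1, rank 27, was the most variable, at 0.0230% in northern_24 2a and 0.812% in southern_20 2a, a 35.3-fold range. TRINITY_DN121714_c20_g5_i1, rank 58, had a 17.5-fold range, with its lowest value in southern_24 2a and its highest in northern_24 2b. These extremes were named after their values were seen.

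Several of the contigs were close relatives in the assembly. The 100 contigs came from 97 Trinity genes, which are Trinity's groups of related contigs, and from 94 components. The isoforms TRINITY_DN121381_c29_g2_i2 and TRINITY_DN121381_c29_g2_i1, ranks 6 and 7, kept a ratio of counts between 1.04 and 1.06 in all 24 libraries. TRINITY_DN279096_c12_g1_i1 and TRINITY_DN279096_c12_g1_i3, ranks 34 and 36, had ratios of 0.971 to 1.07. Reads shared by such pairs may have been split between them, so the levels of their members are uncertain. The counts that follow take each contig by itself: the 10 called for temperature over both latitudes include both contigs of the second pair, and the 10 called for latitude over both temperatures include both isoforms of TRINITY_DN173543_c19_g1. Only 8 of the 100 had another contig of their Trinity gene in the table, against 22.9% of all contigs.

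The summed share was highest in northern larvae at 24 °C. The 6 libraries of southern larvae at 24 °C held 37.2 to 45.3% of counts in the 100 contigs, with a median of 42.3%, against 37.4 to 43.5% with a median of 40.9% in southern larvae at 20 °C. In northern larvae at 24 °C the range was 42.1 to 48.3% with a median of 46.1%, against 34.5 to 44.2% with a median of 41.6% at 20 °C. The temperatures overlapped in both latitudes, less so in northern larvae, and the latitudes overlapped at both temperatures. The means were 42.2% ± 2.88 in southern larvae at 24 °C, 40.6% ± 2.76 in southern larvae at 20 °C, 45.5% ± 2.48 in northern larvae at 24 °C and 40.8% ± 3.36 in northern larvae at 20 °C (SD, n = 6 each). The other 33995 contigs hold the rest of each library, so a higher share of the 100 means a lower share of the others.

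**Figure D2:**
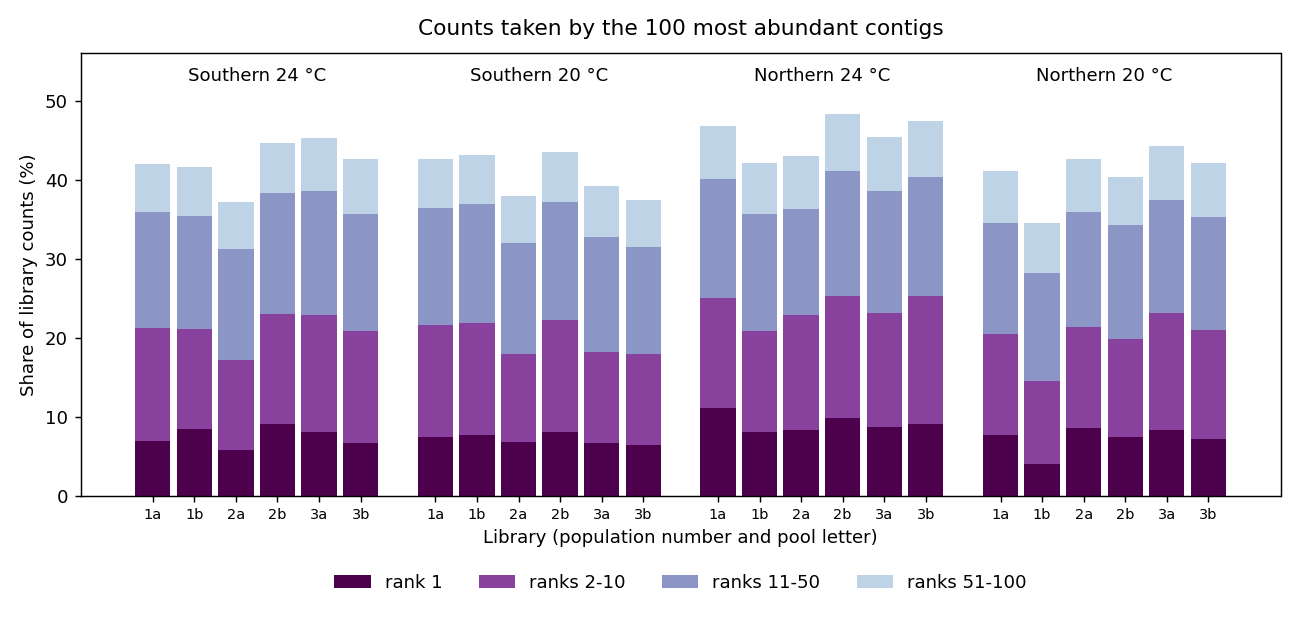
Share of library counts (%) taken by the 100 contigs in each of the 24 libraries, stacked by rank 1, ranks 2 to 10, ranks 11 to 50 and ranks 51 to 100. Libraries are grouped by latitude and temperature, and labels give population number and pool; the stacks differ mainly in the lowest 2 blocks, and northern_20 1b is the shortest at 34.5%.

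Population by population, the share was higher at 24 °C in all 3 northern populations and varied in the southern ones. Northern population 1 held 44.5% at 24 °C and 37.8% at 20 °C, a difference of 6.66 percentage points (means of 2 pools). The differences were 4.15 points in northern population 2 and 3.29 in northern population 3. In none of the 3 did the pools of the temperatures overlap. Southern population 3 differed by 5.62 points, with 43.9% at 24 °C and 38.3% at 20 °C and no overlap. Southern population 2 differed by 0.18 points with overlapping pools, and southern population 1 by -1.13 points, with 41.7% at 24 °C and 42.9% at 20 °C and no overlap of its pools. These differences stand beside a gap between pools a and b of the same population and temperature of 0.36 to 7.51 points, with a median of 2.45 (n = 12 pairs).

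The shares were also computed on contigs chosen without the libraries measured. The choices on pools a and b had 97 contigs in common, and both pools came from the same populations and temperatures. The choice was thus not independent of the groups measured. With the 100 contigs chosen on the 12 a pools and measured in the b pools, the shares were 42.9% ± 1.58 in southern larvae at 24 °C, 41.4% ± 3.43 in southern larvae at 20 °C, 45.9% ± 3.45 in northern larvae at 24 °C and 38.9% ± 3.95 in northern larvae at 20 °C (SD, n = 3 each). With the pools exchanged they were 41.5% ± 4.08, 39.9% ± 2.44, 45.1% ± 1.91 and 42.6% ± 1.55 for the same groups in the same order (SD, n = 3 each). Northern larvae at 24 °C had the highest mean in both cases, and the place of northern larvae at 20 °C changed.

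Most of the spread between libraries sat in the first 10 contigs. These held 21.2% ± 2.64 of counts (SD, n = 24), ranks 11 to 50 held 14.6% ± 0.608 and ranks 51 to 100 held 6.49% ± 0.380. The first contig took 7.48% ± 1.20 in southern larvae at 24 °C and 7.16% ± 0.617 in southern larvae at 20 °C, against 9.16% ± 1.13 in northern larvae at 24 °C and 7.16% ± 1.66 in northern larvae at 20 °C (SD, n = 6 each). Its lowest share was 3.95% in northern_20 1b and its highest 11.1% in northern_24 1a. Of the 4.70 points between the temperatures in northern larvae, the first contig held 2.00 and the other 99 held 2.70. In southern larvae the 24 °C mean was 1.56 points above the 20 °C mean, of which TRINITY_DN121518_c13_g1_i1 held 0.535 and the first contig 0.320. In shares of raw totals, warming to 24 °C went with a higher mean for 58 contigs and a lower one for 42 in northern larvae. The numbers were 64 and 36 in southern larvae. In fits on raw totals the median log2 fold change of all contigs was -0.20 in northern and -0.08 in southern larvae. Of the 100 contigs, 93 and 79 lay above these medians.

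Measures of dominance over the whole library ran the same way, but they were not independent of the summed share. The 100 contigs held 34.5 to 48.3% of the counts of each library, so they weighed heavily in these measures. The number of contigs that together held 50% of the counts was 158 to 319 in southern larvae at 24 °C (median 203.5) and 193 to 328 in southern larvae at 20 °C (median 250.5). It was 111 to 210 in northern larvae at 24 °C (median 136.5) and 176 to 320 in northern larvae at 20 °C (median 226.5). The effective number of contigs, the exponential of the Shannon entropy of the shares, averaged 1643 ± 269 in southern larvae at 24 °C, 1834 ± 275 in southern larvae at 20 °C, 1315 ± 195 in northern larvae at 24 °C and 1771 ± 306 in northern larvae at 20 °C (SD, n = 6 each). Fewer contigs thus carried the counts of northern larvae at 24 °C, while the ranges of all 4 groups overlapped.

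The scale of the values matters for contigs this abundant. Shares refer to raw library totals. The levels and fold changes that follow are in counts scaled to a common library size (CPM) on library sizes scaled by trimmed mean of M values (TMM), which sets the bulk of contigs level between libraries. Mean TMM factors were 1.02 in southern larvae at 24 °C, 1.08 in southern larvae at 20 °C, 0.887 in northern larvae at 24 °C and 1.03 in northern larvae at 20 °C, so the same counts give a higher scaled level in northern larvae at 24 °C. On this scale the summed level of the 100 contigs was 41.6% ± 5.68 of the scaled library in southern larvae at 24 °C, 37.8% ± 4.95 in southern larvae at 20 °C, 51.7% ± 6.18 in northern larvae at 24 °C and 39.9% ± 4.51 in northern larvae at 20 °C (SD, n = 6 each). Numbers of contigs with a fitted change above or below 0 are therefore given on both scales.

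For temperature in northern larvae 3 of the 100 contigs were called, all higher at 24 °C (edgeR quasi-likelihood test, adjusted p under 0.05). Over all 31287 contigs tested, 0.559% were called, 0.345% upward, and over the 900 contigs of rank 101 to 1000 the share was 3.67%. The count of 3 was thus near the share of the contigs that follow in rank. TRINITY_DN68419_c1_g1_i1, rank 28, ranged from 3255 to 5048 CPM with a median of 4490 in northern larvae at 24 °C, against 2008 to 3169 with a median of 2755 at 20 °C. All libraries at 24 °C lay above those at 20 °C, and the log2 fold change was 0.70 ± 0.12 (SE; edgeR adjusted p = 0.012). It was higher at 24 °C in each northern population, by 0.67, 0.68 and 0.78 on the log2 scale. TRINITY_DN121526_c8_g1_i1, rank 90, ranged from 917.6 to 1627 CPM with a median of 1263 at 24 °C, against 638.2 to 988.3 with a median of 871.2 at 20 °C, so the temperatures overlapped slightly. Its log2 fold change was 0.56 ± 0.10 (SE; edgeR adjusted p = 0.0162).

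The first contig was at 80230 to 123000 CPM with a median of 101800 in northern larvae at 24 °C, against 36540 to 85620 with a median of 73280 at 20 °C. The ranges overlapped, and its response of 0.58 ± 0.18 on the log2 scale did not pass (SE; edgeR adjusted p = 0.131). TRINITY_DN68460_c0_g1_i1 ranged from 21870 to 38490 CPM with a median of 30090 at 24 °C, against 15960 to 26590 with a median of 21860 at 20 °C, and did not pass either (0.52 ± 0.15, SE; edgeR adjusted p = 0.128). The 100 contigs leaned to one side even where single tests did not pass. In northern larvae 93 had a fitted fold change above 0 with a median of 0.25 on the log2 scale, while 51.1% of all contigs lay above 0 with a median of 0.01; on raw totals, where the median of all contigs lay at -0.20, 58 lay above 0 and 93 above that median. Over ranks 101 to 1000, 63.4% lay above 0 on TMM-scaled levels with a median of 0.07. The contigs that follow in rank thus leaned the same way, but less. At an unadjusted edgeR p under 0.05 there were 44 of the 100, 13.6% of all contigs and 29.1% of ranks 101 to 1000.

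The northern count depended on single libraries. It was 8 when northern_24 2a was left out and 5 without northern_20 1a, with 150 and 322 of all contigs called. It was 1 without northern_24 1a or northern_20 2b, with 69 and 62 of all contigs. Without northern population 2 or 3 it was 1 and 0, with 28 and 37 of all contigs. With both pools of a population summed, so that populations were the replicates, 0 of the 100 and 2 of all contigs were called. TRINITY_DN121526_c8_g1_i1 did not pass without northern_24 1a (edgeR adjusted p = 0.0532) or northern_20 2b (edgeR adjusted p = 0.0571), nor without northern population 2 or 3 (edgeR adjusted p = 0.183 and 0.124). TRINITY_DN68419_c1_g1_i1 did not pass without northern population 2 or 3 either (edgeR adjusted p = 0.12 and 0.149).

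In southern larvae 0 of the 100 contigs were called for temperature by edgeR, against 0.105% of all contigs. DESeq2 called 3 of the 100 and 57 of all contigs. Before adjustment, 19 of the 100, 7.02% of all contigs and 16.8% of ranks 101 to 1000 had an edgeR p under 0.05. The smallest p belonged to TRINITY_DN121518_c13_g1_i1, rank 3, at 20020 to 24460 CPM with a median of 21810 in southern larvae at 24 °C, against 12190 to 18590 with a median of 15800 at 20 °C. The ranges did not overlap, and the log2 fold change was 0.49 ± 0.10 (SE; edgeR adjusted p = 0.0732). The first contig was at 50330 to 92710 CPM with a median of 74100 at 24 °C, against 56960 to 78570 with a median of 65650 at 20 °C, with wide overlap. Of the 100 contigs, 79 had a fold change above 0 with a median of 0.15 on the log2 scale. The shares above 0 were 49.9% of all contigs and 68.9% of ranks 101 to 1000. On raw totals, where the median of all contigs lay at -0.08, 62 of the 100 lay above 0 and 79 above that median. On TMM-scaled levels the number above 0 became 56 without southern population 3. The count of calls was 3 without northern_24 2a and 3 without northern population 2, with 34 and 30 of all contigs called. These libraries enter the southern test through the shared estimate of spread. TRINITY_DN121518_c13_g1_i1 then passed (edgeR adjusted p = 0.0339 and 0.0496).

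Averaged over both latitudes, 10 of the 100 contigs rose at 24 °C and 0 fell (edgeR, adjusted p under 0.05). Over all contigs 1.82% were called, 1.14% upward and 0.678% downward, and over the contigs of rank 101 to 1000 the share was 7.89%. Before adjustment, 51 of the 100, 14.8% of all contigs and 34.8% of ranks 101 to 1000 had an edgeR p under 0.05. TRINITY_DN121518_c13_g1_i1 had the smallest p. Its northern libraries ranged from 16880 to 23880 CPM with a median of 21320 at 24 °C, against 14550 to 17070 with a median of 15350 at 20 °C, and they overlapped slightly, unlike the southern ones. It was higher at 24 °C in all 6 populations, by 0.26 to 0.77 on the log2 scale, and its mean log2 fold change was 0.46 ± 0.07 (SE; edgeR adjusted p = 0.00267). TRINITY_DN279096_c12_g1_i1, rank 34, was at 2781 to 3177 CPM with a median of 3071 in southern larvae at 24 °C and 2030 to 2477 with a median of 2355 at 20 °C. In northern larvae it was at 2285 to 3413 CPM with a median of 3059 at 24 °C, against 2131 to 2741 with a median of 2387 at 20 °C. Only the southern ranges were apart, and the mean log2 fold change was 0.36 ± 0.06 (SE; edgeR adjusted p = 0.00624).

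On TMM-scaled levels, 28 of the 100 contigs were higher at 24 °C in all 6 populations, against 4.37% of all contigs and 16.7% of the contigs of rank 101 to 1000. The opposite pattern was found for 0 of the 100 and 3.86% of all contigs. In the 3 northern populations 68 were higher at 24 °C and 2 lower, with backgrounds of 17.1% and 14.8%. In the 3 southern populations 39 were higher and 2 lower, with backgrounds of 14.3% and 14.8%. Over ranks 101 to 1000 the shares were 33.8% and 12% in northern and 33.2% and 10.2% in southern populations. The southern count of 39 was thus near the share of the contigs that follow in rank. Library by library, all 6 northern libraries at 24 °C lay above all 6 at 20 °C for 7 of the 100 and 0.671% of all contigs, and below them for 0 and 0.447%. In southern larvae the 24 °C libraries lay above for 9 and 0.352%, and below for 0 and 0.336%. Over ranks 101 to 1000 the shares above were 3.89% in northern and 3.56% in southern larvae. Those below were 1.44% and 0.667%. The averaged count of 10 was 1 without northern population 3, with 179 of all contigs called. It was 4, 3 and 1 when southern population 1, 2 or 3 was left out, with 205, 121 and 135 of all contigs. On raw totals it was 4, with 1703 of all contigs. With both pools of a population summed it was 1, with 4 of all contigs. There TRINITY_DN121518_c13_g1_i1 had an edgeR adjusted p = 0.222. TRINITY_DN279096_c12_g1_i1 did not pass without northern population 3 or southern population 3 (edgeR adjusted p = 0.0557 and 0.0523) or on raw totals (edgeR adjusted p = 0.0768).

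**Figure D3:**
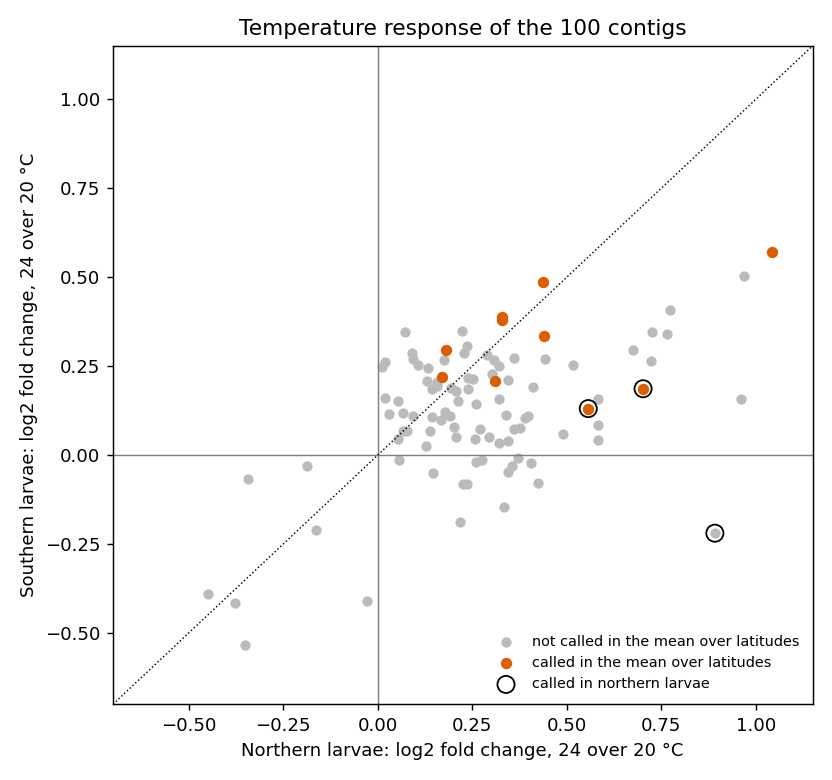
Log2 fold change of 24 over 20 °C in northern larvae (x axis) and southern larvae (y axis) for each of the 100 contigs. Filled orange points are the 10 contigs called in the mean over latitudes, and open circles the 3 called in northern larvae. The dotted line marks equal responses. Most points lie above 0 on both axes, with 93 above 0 on the x axis and 79 on the y axis on TMM-scaled levels. On raw totals 58 and 62 lie above 0, and 93 and 79 above the median of all contigs.

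The test of the difference between the latitudes' temperature responses was passed by 0 of the 100 contigs and 0.0256% of all contigs in edgeR, and by 0 of the 100 in DESeq2. At an unadjusted p under 0.05 there were 6 of the 100 and 5.17% of all contigs. The smallest p was that of TRINITY_DN222649_c22_g1_i1, rank 16. It was at 2842 to 7044 CPM with a median of 4745 in southern larvae at 24 °C, against 4768 to 6277 with a median of 5674 at 20 °C. In northern larvae it was at 6637 to 10900 CPM with a median of 10300 at 24 °C, against 3778 to 6912 with a median of 4824 at 20 °C. The northern temperatures overlapped only narrowly and the southern ones widely. Its southern minus northern difference in response was -1.11 ± 0.27 on the log2 scale (SE; edgeR adjusted p = 0.262). For the first contig the difference was -0.42 ± 0.25 (SE; edgeR adjusted p = 0.976), which leaves room for equal responses and for a northern response well above the southern one.

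Southern and northern larvae were compared on sums of both pools of a population, 3 populations against 3. At 24 °C 3 of the 100 contigs were called by edgeR, all lower in southern larvae, against 1.17% of all contigs (0.815% lower) and 5.11% of those of rank 101 to 1000. This fit took its spread from all 12 sums. In a fit on the 6 sums at 24 °C alone, added after the data were seen, 0 of the 100 and 155 of all contigs were called. TRINITY_DN222649_c22_g1_i1, with the values given above, differed by -0.94 ± 0.15 on the log2 scale (SE; edgeR adjusted p = 0.0269), and its southern and northern libraries at 24 °C overlapped narrowly. TRINITY_DN222702_c0_g1_i1, rank 41, was at 1377 to 2341 CPM with a median of 2056 in southern larvae at 24 °C, against 2713 to 3828 with a median of 3077 in northern larvae. The latitudes did not overlap, and the log2 difference was -0.65 ± 0.12 (SE; edgeR adjusted p = 0.0373). In the fit on 6 sums the edgeR adjusted p-values of the pair were 0.051 and 0.0732.

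At 20 °C edgeR called 0 of the 100 contigs between latitudes, against 0.00959% of all contigs. DESeq2 called 8 of the 100 and 1015 of all contigs. Before adjustment, 24 of the 100 at 20 °C and 34 at 24 °C had an edgeR p under 0.05, with 14.6% and 16.4% of all contigs, so the counts of calls do not show that latitude mattered at 24 °C only. TRINITY_DN173543_c19_g1_i2, rank 48, had the smallest p at 20 °C. It was at 1225 to 1794 CPM with a median of 1544 in southern larvae and 1736 to 3493 with a median of 2087 in northern larvae at 20 °C, with narrow overlap (-0.58 ± 0.13, SE; edgeR adjusted p = 0.12).

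Over both temperatures 10 of the 100 contigs were lower in southern larvae and 0 were higher (edgeR, adjusted p under 0.05). The background was 1.98% over all contigs, 1.42% downward and 0.566% upward, and 7.67% over the contigs of rank 101 to 1000. Before adjustment, 43 of the 100, 20.1% of all contigs and 35.7% of ranks 101 to 1000 had an edgeR p under 0.05. TRINITY_DN121714_c20_g5_i1 was at 1001, 726.7 and 1117 CPM in the 3 southern populations, against 2181, 2649 and 2640 in the 3 northern ones, a log2 difference of -1.39 ± 0.17 (SE; edgeR adjusted p = 0.0235). Its single libraries ran from 162 to 1810 CPM in the southern 24 °C group and from 348.5 to 1597 CPM at 20 °C, against 2966 to 4082 in northern larvae at 24 °C and 891 to 2521 at 20 °C. The latitudes were thus apart at 24 °C and overlapped at 20 °C. TRINITY_DN222702_c0_g1_i1 was at 2038, 1911 and 1832 CPM in southern populations, against 2672, 2753 and 2935 in northern ones (-0.53 ± 0.07, SE; edgeR adjusted p = 0.0235).

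On TMM-scaled levels, all 3 southern populations lay below all 3 northern ones for 40 of the 100 contigs and above them for 6. Of all contigs, 14% and 13.3% did so, and of ranks 101 to 1000, 30.2% and 13.8%. In the fits, 81 of the 100 and 52.9% of all contigs were lower in southern larvae at the higher temperature, and 66 and 51.2% at the lower one, with medians over the 100 of -0.23 and -0.11 on the log2 scale; on raw totals the numbers above 0 were 41 at 24 °C and 43 at 20 °C, and 24 and 35 lay above the median of all contigs, then at 0.17 and 0.06. On TMM-scaled levels the contigs above 0 were 19 and 34 of the 100, against 38.9% and 39.7% of ranks 101 to 1000, so at 20 °C the 100 were near the contigs that follow them in rank.

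The latitude calls were sensitive to single libraries and to single populations. The 24 °C count was 0 without northern_20 1a, northern_24 2b or southern_24 2a, 6 without southern_24 3a, and 1 without northern_24 1a, northern_20 3a, southern_24 1b, southern_24 2b, southern_20 3a or southern_24 3b. It was 1 without northern population 1, 5 without southern population 3 and 0 without any other population. Of all contigs, 52 to 475 were called in these single-library settings and 1 to 190 in the population settings. The count over both temperatures was 16 without southern_20 1a, 6 without northern_20 1a, southern_20 2b or southern_20 3b, 5 without southern_24 2b, 4 without northern_24 1a or southern_20 3a, 3 without northern_24 3b, 2 without northern_20 2b and 0 without southern_24 1b. Leaving out northern population 1, 2 or 3 gave 3, 0 and 4. Leaving out southern population 1, 2 or 3 gave 3, 1 and 1. Of all contigs, 219 to 1048 were called without these libraries and 80 to 463 without a population. At 24 °C TRINITY_DN222649_c22_g1_i1 did not pass without northern_20 1a, northern_24 2b or southern_24 2a (edgeR adjusted p = 0.0573, 0.0601 and 0.0955). Nor did it pass without northern population 2 or 3 or southern population 1, 2 or 3 (edgeR adjusted p = 0.0593 to 0.117). TRINITY_DN222702_c0_g1_i1 did not pass there without any 1 of northern_20 1a, northern_24 1a, northern_24 2b, northern_20 3a, southern_24 1b, southern_20 2a, southern_24 2a, southern_24 2b, southern_20 3a and southern_24 3b (edgeR adjusted p = 0.0501 to 0.0747). The same contig did not pass without any 1 population except southern population 3 (edgeR adjusted p = 0.0653 to 0.191). Over both temperatures TRINITY_DN121714_c20_g5_i1 did not pass without southern_24 1b, southern_24 2b or southern_20 3a (edgeR adjusted p = 0.0521, 0.0685 and 0.0613). Nor did it pass without northern population 1, 2 or 3 or southern population 1 (edgeR adjusted p = 0.0512 to 0.0853). TRINITY_DN222702_c0_g1_i1 did not pass there without southern_24 1b (edgeR adjusted p = 0.0521). The same held without northern population 2 or southern population 2 or 3 (edgeR adjusted p = 0.0853 to 0.109).

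Populations within a latitude were compared by edgeR's F test. Among northern populations 0 of the 100 were called against 0.694% of all contigs, with 10 of the 100 and 12.8% of all contigs at an unadjusted p under 0.05. Among southern populations 0 were called against 0.109% of all contigs, with 1 of the 100 and 7.13% of all contigs at an unadjusted p under 0.05. DESeq2 called 0 in both. TRINITY_DN121363_c23_g1_i1, rank 25, had the smallest p among northern populations, with means of 3799, 4668 and 3452 CPM in populations 1, 2 and 3 (edgeR adjusted p = 0.185). TRINITY_DN173667_c10_g1_i2, rank 53, had the smallest among southern ones, with 1223, 1751 and 2250 CPM (edgeR adjusted p = 0.371).

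Pools of the same population and temperature differed widely in some contigs and little in others. The median absolute log2 difference between pools a and b was 0.24 over the 100 contigs, against 0.16 over ranks 101 to 1000 and 0.37 over all contigs tested (medians over 12 pairs). Pools of northern population 1 at 20 °C differed over 2-fold in 22 of the 100 contigs and 19.4% of all contigs tested, and those of southern population 2 at 24 °C in 17 and 14.4%. These shares of the 100 are near those of all contigs, but above those of ranks 101 to 1000, which were 12.4% and 8.33%. The other 10 pairs had 1 to 6 such contigs of the 100, with 11.8 to 18.8% of all contigs. In these pairs ranks 101 to 1000 had 1.78 to 6.67%. TRINITY_DN174178_c2_g1_i1, rank 84, had the smallest median difference between pools, 0.02 on the log2 scale. TRINITY_DN173695_c9_g1_i1, rank 81, had the largest, 1.22, and reached 2.82 in northern population 1 at 20 °C. For pool b over pool a, taken over all populations, edgeR called 0 of the 100 and 0% of all contigs, with 0 of the 100 and 2.93% of all contigs at an unadjusted p under 0.05, and DESeq2 called 0 of the 100. TRINITY_DN222815_c5_g1_i1, rank 100, had the smallest p, at 0.085 ± 0.046 on the log2 scale (SE; edgeR adjusted p = 1).

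In a few libraries several of the 100 contigs were far from their own means. Of the 2400 values of a contig in a library, 74 were over 2-fold from the contig's own mean on the log2 scale, and 67 of the 100 contigs had none. Among ranks 101 to 1000, 8.0% of contigs were over 2-fold from their means in southern_24 2a, 10.0% in northern_20 1b and 6.11% in northern_24 2b, so the numbers for the 100 contigs that follow are near that level in the last 2 libraries and higher in the first. Southern_24 2a had 15 contigs over 2-fold below their means, which held 4.42% of counts on average and 1.48% there. Northern_20 1b had 11, which held 10.3% on average and 4.65% there, the first contig among them. These sets had 0 contigs in common. Northern_24 2b had 8 contigs over 2-fold above their means, and 7 of them were among the 15 that were low in southern_24 2a. With northern_20 1b left out, the mean summed share of northern larvae at 20 °C was 42.1%, and with southern_24 2a left out that of southern larvae at 24 °C was 43.2%.

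**Figure D4:**
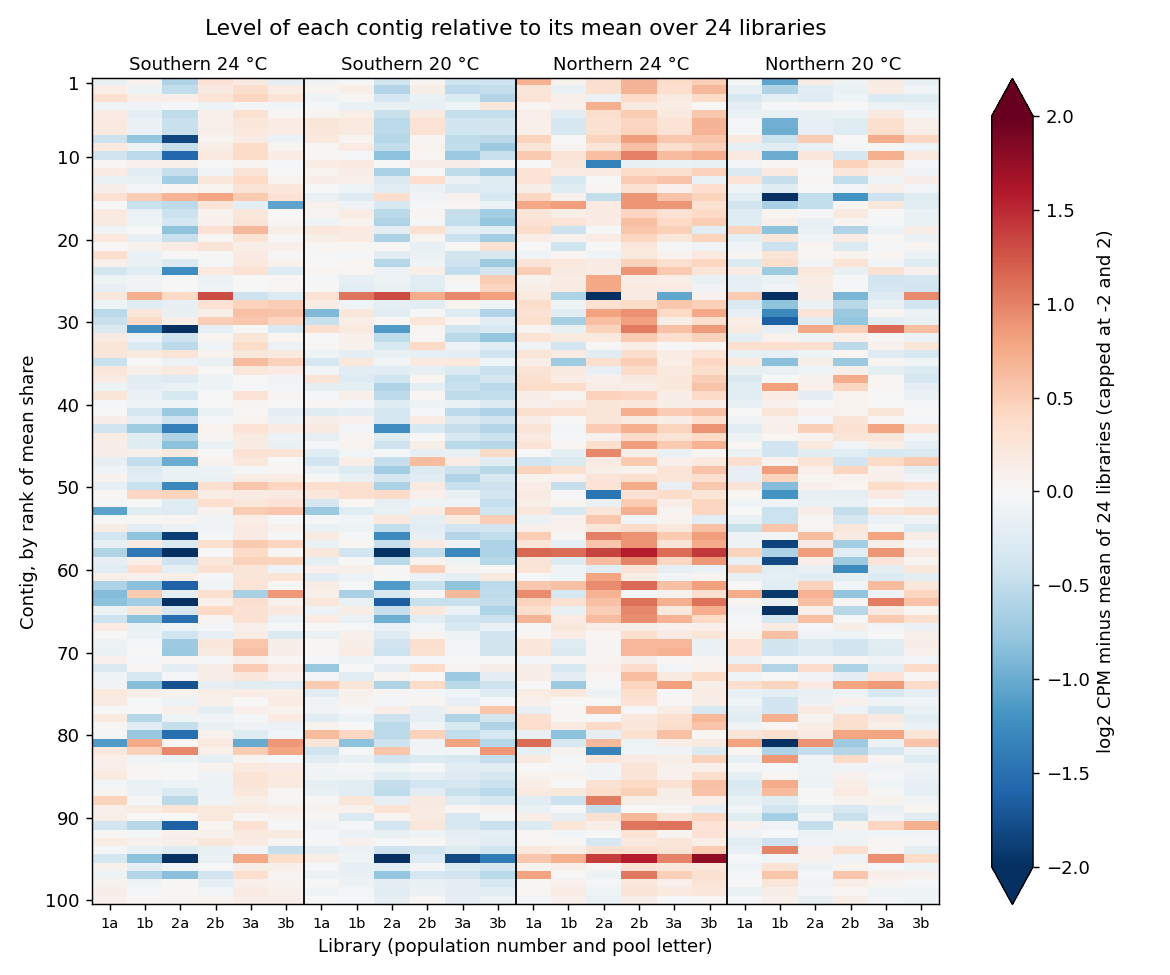
Log2 CPM of each of the 100 contigs (y axis, by rank of mean share) minus its mean over 24 libraries, for each library (x axis, population number and pool), with colours capped at -2 and 2. Red is above and blue below the contig's mean; northern libraries at 24 °C are mostly red, and dark blue marks the 15 contigs low in southern_24 2a and the 11 low in northern_20 1b.

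The shared direction was visible library by library on TMM-scaled levels. In northern larvae at 24 °C 60 to 94 of the 100 contigs lay above their own means, against 31 to 57 at 20 °C. In southern larvae at 24 °C the number was 26 to 86, against 13 to 48 at 20 °C. The northern ranges were apart and the southern ones overlapped, with southern_24 2a lowest among the southern libraries at 24 °C. The contigs of rank 101 to 1000 leaned the same way, with overlap. Their median log2 deviation from their means was 0.01 to 0.16 in northern libraries at 24 °C, against -0.04 to 0.03 at 20 °C. In southern libraries it was -0.04 to 0.09 at 24 °C, against -0.13 to -0.02 at 20 °C. In fits on raw totals, 58 of the 100 were higher at 24 °C in northern larvae and 62 in southern larvae.

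The variance of log2 CPM of each contig was split over the design. The pools held a median of 32.7% of the variance with 52.2% of the degrees of freedom, and exceeded that share in 9 of the 100 contigs. Temperature held a median of 12.8% and latitude 12.1%, each with 4.35% of the degrees of freedom. For temperature the median over all contigs was 3.34% and over ranks 101 to 1000 it was 6.76%; for latitude these were 6.44% and 12.8%. Populations within a latitude held 11.1%, temperature by population 12.1% and temperature by latitude 1.86%. The pools were the largest source for 52 of the 100 contigs, latitude for 24, temperature for 19, population for 4 and temperature by latitude for 1. TRINITY_DN121518_c13_g1_i1 had the highest temperature share, 71.1%, and TRINITY_DN222649_c22_g1_i1 the highest share of temperature by latitude, 34.5%. These shares describe the spread and carry no test.

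**Figure D5:**
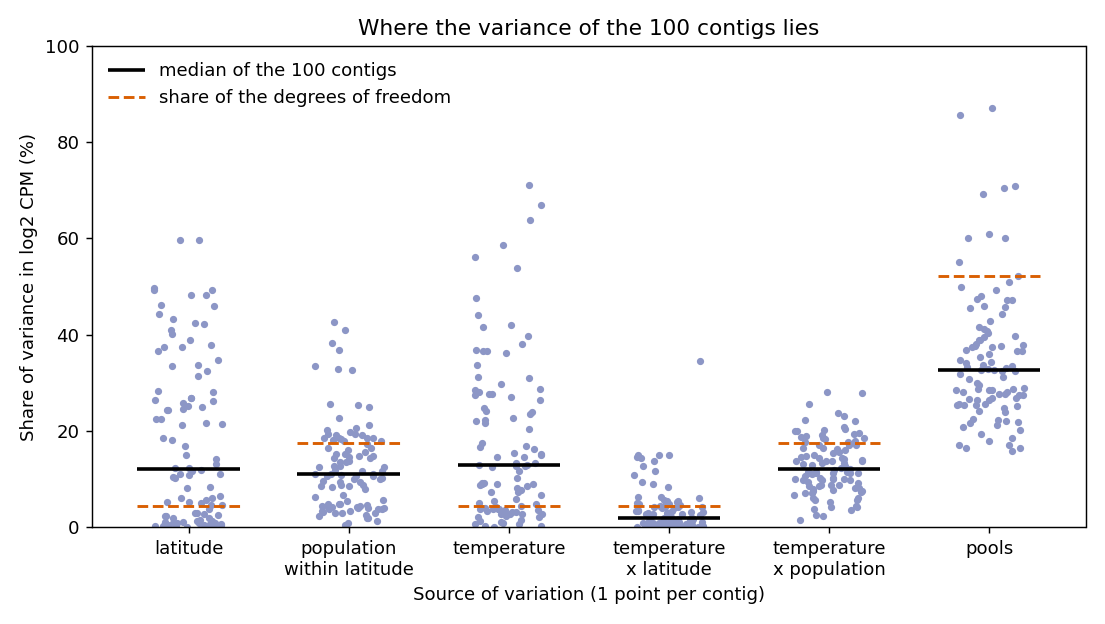
Share of the variance in log2 CPM (%) by source of variation for the 100 contigs, 1 point per contig. Black bars are medians and dashed orange bars the source's share of the degrees of freedom; the medians of latitude (12.1%) and temperature (12.8%) lie above their 4.35%, and the median of the pools (32.7%) lies below its 52.2%.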

How the data were processed

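The values are raw read counts, deposited by the authors as a single table of 34095 contigs and 24 libraries, with library totals of 12061616 to 17157615 counts. The tools named are Trimmomatic 0.36, Subread 1.5.1, featureCounts and FastQC 0.11.5, per the submitters' processing notes, which give no roles; the assembly, mapping settings and use of strand were not given in the sources used here. Every deposited contig exceeded 1 CPM in at least 2 libraries. The 100 contigs were ranked by mean count over column total. The contigs, the comparisons and the rules were chosen with earlier results of these data known.

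Counts were tested on the whole table with edgeR 4.0.16 in R 4.3.3 (TMM, filterByExpr with minimum count 10 and minimum total 15, robust quasi-likelihood F tests), which left 31287 contigs and all 100 of the list. Benjamini-Hochberg adjustment ran over all of them, SEs are those implied by F, and the prior count of log2 CPM was 2. The temperature model had 6 population intercepts and 1 temperature effect per latitude. Latitude was tested on population sums. The labels give the pairing by population: libraries of a population correlated at 0.01 to 0.16 with those at the other temperature, after removal of group means. The pools are different larvae of a population. Temperature p-values measure a spread that joins differences between pools and differences in temperature response among the populations of a latitude. Contigs are named if among the 10 most abundant, or by the smallest p of a comparison, at most 2 in each direction. DESeq2 1.42.0, limma 3.58.1, other scalings, list sizes, filters, single pools and leave-outs were alternatives. Chi-square per degree of freedom between pools was 11.9 to 60.4, so no library was counted as a repeat. Counting error at this depth was small beside the spread between pools.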

Additional observations from a re-analysis of the deposited data

Results flagged for a closer look

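Among 108 groups of 6 libraries examined for the summed measures and the 24 named contigs, 8 had 1 library whose gap to its nearest neighbour was over 0.625 of the group's range. Chance gives about 1 in 20 groups. Northern_20 1b held 3.95% of its counts in the first contig, TRINITY_DN68415_c43_g1_i1, against 7.11 to 8.52% in the other 5 libraries, and 36540 CPM against 68630 to 85620. TRINITY_DN173382_c1_g2_i1 was at 27560 CPM in northern_24 2a, against 16960 to 19180 in the others of its group, and at 19890 in southern_20 3b, against 15090 to 16430. The same libraries stood out for TRINITY_DN121363_c23_g1_i1, at 6606 CPM in northern_24 2a against 3490 to 4302, and at 5471 in southern_20 3b against 3314 to 4008. TRINITY_DN279096_c12_g1_i1 was low in southern_20 3b, at 2030 CPM against 2331 to 2477. TRINITY_DN5668_c9_g2_i1 was at 17970 CPM in northern_20 3a, against 14260 to 15480.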

How the results depend on the processing

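Numbers of the 100 contigs called by edgeR at an adjusted p under 0.05 moved with several choices. Counts on the first 50 or 200 contigs are out of 50 or 200. They change with the size of the list, so a higher or lower count there need not be a different share. For temperature in northern larvae (3 called) the count was 6 on the 200 most abundant contigs and 14 by DESeq2. It was 6 with no replicate block, 5 with counts summed over Trinity genes, and 0 with pools summed or on either pool alone. Leaving out a library or population gave 0 to 8. Over all contigs DESeq2 called 807, and edgeR called 190 with no replicate block and 224 Trinity genes. With pools summed it called 2, and on pools a and b 1 and 0. In southern larvae (0) DESeq2 called 3 of the 100 and 57 of all contigs, and leave-outs gave 0 to 3. Averaged over latitudes (10) the count was 6 on the first 50 contigs, 21 on 200 and 23 by DESeq2. It was 4 on raw totals, 1 with pools summed and 0 on either pool alone, with leave-outs at 1 to 15. Over all contigs 1115 were called by DESeq2, 1703 on raw totals, 4 with pools summed, and 0 and 2 on pools a and b. For latitude at 24 °C (3) it was 5 on 200, 5 on raw totals and 19 by DESeq2, with leave-outs at 0 to 6. It was 12 by limma with population as a random block, and 0 on either pool or on the 6 sums of that temperature alone. It was also 0 with populations of 1 number paired as a replicate block. Over all contigs 1036 were called on raw totals, 953 by limma and 1729 by DESeq2. The totals were 0 and 4 on pools a and b, 66 with paired populations and 155 on the 6 sums. At 20 °C (0) DESeq2 called 8 of the 100 and 1015 of all contigs. Over both temperatures (10) the count was 3 on 50 contigs, 18 on 200, 28 by limma and 32 by DESeq2. It was 0 on either pool and 0 with paired populations as a replicate block, with leave-outs at 0 to 16. Over all contigs limma called 3009 and DESeq2 2754. There edgeR called 33 and 96 on pools a and b, and 144 with paired populations. Population numbers are shared across latitudes by name only: same-numbered populations correlated at -0.05 to 0.01. The cause was not tested, except that single pools and leave-outs hold fewer libraries. The number higher at 24 °C in northern larvae (93) was 58 on raw totals, and 86 to 94 with leave-outs. Summed shares for southern 24 °C, southern 20 °C, northern 24 °C and northern 20 °C were 35.8, 34.4, 38.7 and 34.3% on 50 contigs and 49.1, 47.2, 52.4 and 47.7% on 200; on TMM-scaled sizes southern 20 °C was 37.8% and northern 24 °C 51.7%. The counts of 0 for the difference in response, for populations and for pool letter stayed at 0 in the settings run. No named contig changed sign where its fold change was tested again. The median southern minus northern difference in temperature response over the 100 contigs did change, from -0.09 with TMM to 0.04 on raw totals. With both scalings 29 of the 100 lay above the median of all contigs.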
